A study of Mus musculus with 28 samples.

Results

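Ldb1 binding was compared between neurons that had chosen 1 odorant receptor, Olfr1507, and mature olfactory sensory neurons as a whole, as mapped by chromatin immunoprecipitation and sequencing (ChIP-seq). The comparison used the deposited Ldb1 peak lists of these cells, 5 of the 28 samples of the series: 2 libraries of Olfr1507 cells and 3 control libraries, restricted to peaks on chromosomes 1 to 19, X and Y. The Olfr1507 cells came from mice carrying M28-IRES-GFP, in which the reporter marks the neurons expressing that receptor. The control cells came from mice carrying OMP-IRES-GFP, in which GFP is made from Omp, a gene of mature olfactory neurons, so that the control pools neurons of many receptor choices. Cells of both kinds were fixed with formaldehyde, sorted and immunoprecipitated with the same anti-Ldb1 antibody. The labels give neither age nor sex. They also do not tell whether different animals gave rise to the libraries, so each p-value reflects how far these libraries vary, and part of that variation may be technical. Lhx2 knockout (KO) neurons (Lhx2fl/fl mice with OMP-IRES-Cre and Rosa-CAG-tdtom+/fl), in which Cre made from Omp acts in neurons that are already mature, and CTCF and Rad21 lists of control neurons served only to describe the same loci.

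Ldb1 binds no DNA itself. It bridges transcription factors, among them the LIM-homeodomain protein Lhx2, and can bring distant enhancers together by joining its own copies. In olfactory neurons, enhancers lying among the odorant receptor genes, many of them called Greek islands, are bound by Lhx2, Ebf factors and Ldb1. Each mature neuron expresses a single receptor gene, and the choice depends on where the cell sits in the olfactory epithelium. Olfr1507, formerly MOR28, is chosen in the ventral zone of the epithelium, and the control cells come from all zones.

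Regions were made by linking peaks that overlapped by at least 1 base. Of 34780 regions with a peak in any of the 5 libraries, 4853 had a peak in all 5, and these are called shared regions. Few of them lay at gene starts: the 300-base promoter windows of RefSeq (build GRCm38.p6, the assembly called mm10 in the submitters' notes) met a shared region in only 100 of 32851 windows. The 6 stretches that follow are parts, upstream of the gene start, that lay under a shared region whose Ldb1 rank shifted in Olfr1507 cells. They are shown because here the bound sequence itself can be read. Stretches of the noncoding RNA genes Gm31295 (higher) and C230072F16Rik (lower) and shorter ones are not printed. Those of 5530401A14Rik, a noncoding RNA gene inside Asic2, and Ptgr2 ranked higher in Olfr1507 cells, and those of Msx2, Prkg1, Dusp23 and Fam181b ranked lower. Capitals mark TAATTA, the core recognised by many homeodomain proteins.
5530401A14Rik: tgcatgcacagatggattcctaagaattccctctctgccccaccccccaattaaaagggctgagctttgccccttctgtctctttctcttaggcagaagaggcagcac
Ptgr2: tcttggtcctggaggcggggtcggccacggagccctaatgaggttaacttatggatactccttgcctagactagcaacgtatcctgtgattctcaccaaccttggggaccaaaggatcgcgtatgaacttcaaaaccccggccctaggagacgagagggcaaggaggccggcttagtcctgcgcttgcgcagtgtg
Msx2: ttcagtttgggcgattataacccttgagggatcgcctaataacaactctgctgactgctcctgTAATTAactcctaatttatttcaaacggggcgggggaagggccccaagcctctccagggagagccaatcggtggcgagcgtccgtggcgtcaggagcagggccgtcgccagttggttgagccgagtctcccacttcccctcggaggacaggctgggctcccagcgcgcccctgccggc
Prkg1: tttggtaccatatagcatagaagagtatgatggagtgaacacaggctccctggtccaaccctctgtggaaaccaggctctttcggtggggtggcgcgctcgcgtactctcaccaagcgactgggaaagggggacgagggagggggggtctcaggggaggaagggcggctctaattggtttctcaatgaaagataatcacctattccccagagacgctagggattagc
Dusp23: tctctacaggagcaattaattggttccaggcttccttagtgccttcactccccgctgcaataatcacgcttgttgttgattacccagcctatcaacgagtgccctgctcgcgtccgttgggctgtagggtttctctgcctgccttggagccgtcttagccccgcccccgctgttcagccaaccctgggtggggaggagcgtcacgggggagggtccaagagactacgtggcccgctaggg
Fam181b: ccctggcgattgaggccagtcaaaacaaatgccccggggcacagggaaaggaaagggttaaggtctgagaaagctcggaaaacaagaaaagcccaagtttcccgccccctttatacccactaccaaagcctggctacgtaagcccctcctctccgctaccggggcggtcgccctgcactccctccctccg

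The stretches lie at chr11:81860569-81860676 (5530401A14Rik, + strand), chr12:84285046-84285241 (Ptgr2, + strand), chr13:53472790-53473030 (Msx2, - strand), chr19:31765034-31765260 (Prkg1, - strand), chr1:172632985-172633224 (Dusp23, - strand) and chr7:93079689-93079878 (Fam181b, + strand). The letters TAATTA, which read the same on both strands, occurred in 24% of the 100 promoter windows that met a shared region and in 5.29% of all 32851 windows. An Ebf-like motif, TCCC and GGGA around any 2 bases, occurred in 5.00% of the 100 and in 0.904% of all windows. A nuclear factor I-like motif, TTGGC and GCCAA around any 5 bases, occurred in none of the 100 and in 0.0365% of all windows. All 3 motifs read the same on both strands, and none contains another. Of the windows that met a shifted region, 1 of 5 with a higher and 1 of 8 with a lower rank held TAATTA, too few to compare.

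The lists differed in length. The Olfr1507 libraries held 5095 and 21250 peaks and the control libraries 24877, 28879 and 16067. The depth behind each peak is unknown, and the deposited score ranks peaks within a list only. Strength is therefore given as a percentile of rank over the 4853 shared regions within each library, with 100 for the strongest. Within the groups these ranks were close. Spearman's rho across regions, which are not independent replicates, was 0.889 for the Olfr1507 pair and 0.983, 0.960 and 0.958 for the control pairs. Between the groups rho ranged from 0.747 to 0.806 over the 6 pairs. The same order was seen in the 5095 strongest peaks of each library. Of these, 83.5% were shared by the Olfr1507 pair, 89.4% to 92.8% by control pairs and 75.6% to 80.6% between the groups. The mean between groups was 11.2 percentage points below the mean within groups (77.7% against 88.9%; exact permutation test, one-sided, p = 0.1, the smallest that 10 assignments of 5 libraries allow).

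The rank of Ldb1 at the shared regions was compared by limma on the normal scores of the ranks (Benjamini-Hochberg adjusted p under 0.05). Ldb1 rank was higher in Olfr1507 cells at 639 regions (13.2% of the 4853) and lower at 554 (11.4%). The median shift was 26.8 percentile points upward and 25.1 points downward. At all 639 and 554 regions both Olfr1507 libraries lay outside the range of the 3 control libraries. Without regard to the test, both Olfr1507 ranks lay above all control ranks at 1344 regions (27.7%) and below them at 1328 (27.4%). Percentile differences are small near the top of the scale, which ends at 100. Among the 1000 regions with the highest mean rank, 54 were higher and 57 lower, and the median absolute difference was 3.17 points against 8.72 over all shared regions. These counts rest on the shared set. When Olfr1507 replicate 1, the short list, was left out and the set remade with 13165 regions, 7 regions were higher and 78 lower. On the same 4853 regions without that library, 672 were higher and 730 lower. Over the 14868 regions with a peak in all 3 control libraries, with an absent Olfr1507 peak tied at the lowest rank, limma called none in either direction, and 3811 had an unadjusted p under 0.05. Without control replicate 1 the counts were 310 and 188, without control replicate 2 they were 280 and 172, and without control replicate 3 they were 479 and 366.

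**Figure D1:**
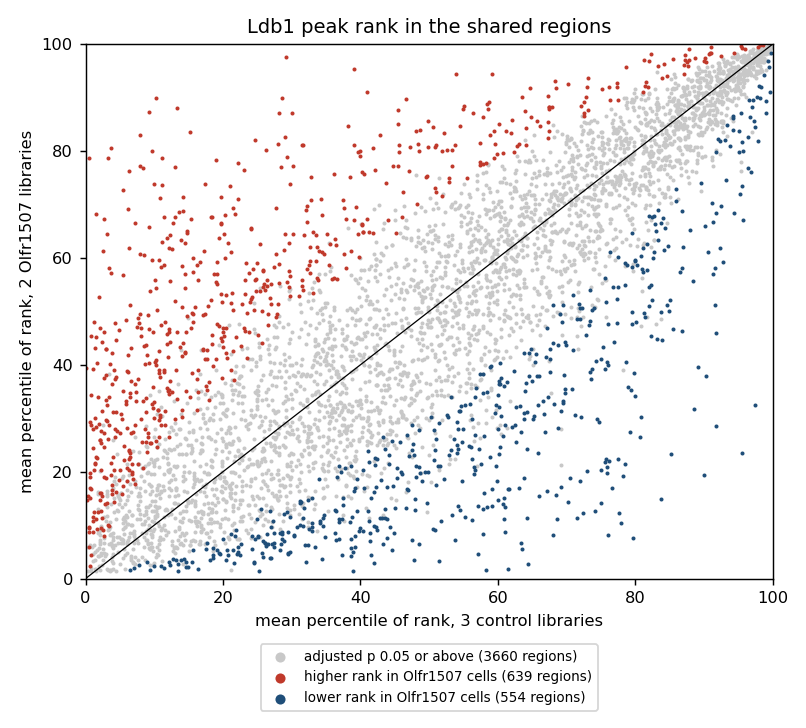
Each point is 1 of the 4853 regions with a Ldb1 peak in all 5 libraries, at its mean percentile of rank in the 3 control libraries (horizontal axis) and in the 2 Olfr1507 libraries (vertical axis), with 100 for the strongest. The 639 regions of higher rank (red) crowd where the control is weak, and the 554 of lower rank (blue) spread over the middle and strong control ranks.

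The set of shared regions shapes these directions. A region weak in the control enters it only if it is among the 5095 peaks of Olfr1507 replicate 1. Of the 639 higher regions, 349 lay among the 971 regions weakest in the control, the lowest of 5 bins by control rank, where 32 were lower. In the highest bin, of 971 regions, 36 were higher and 114 lower.

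The largest rises lay inside or around genes with varied roles, at loci of low rank in the control. Near Fggy, which encodes a carbohydrate kinase 192 kb away, the region at chr4:95364700-95365106 stood at 93.2 and 86.5 in the Olfr1507 libraries and at 7.25, 9.82 and 13.7 in the controls. The groups were far apart, by 79.6 points (difference in normal score 2.58, SE 0.18; limma adjusted p = 0.00111). Within Mfn1, a GTPase of mitochondrial fusion, the region at chr3:32568923-32569328 stood at 80.9 and 76.5 against 0.227, 0.0824 and 1.07. It was among the weakest shared regions in every control library. Within Parva, an actin-binding protein of focal adhesions, the percentiles were 88.9 and 85.5 against 5.84, 13.1 and 8.74. Within Asic2, a proton-gated sodium channel, the region at chr11:81860569-81860975 that holds the 5530401A14Rik stretch stood at 75.4 and 81.8 against 0.608, 2.78 and 6.45. Negr1, a neuronal adhesion protein, held a region at 80.9 and 79.0 against 10.3, 10.1 and 8.74. The other 10 regions of the 15 with the largest rises lay near Tmem64 (2 regions), Krt80, Unc93a2, Ralgapa2, Klf5, Glyctk, Plpp3, Ins1 and Npvf, at distances from 8.49 kb to 264 kb. Their differences ran from 67.2 to 76.7 points and their adjusted p from 0.00111 to 0.00322.

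The largest falls included a distal region of Emx2. Emx2 is a homeodomain factor of the olfactory epithelium. The region 51.7 kb from the gene, at chr19:59517038-59517473, was among the strongest in the control, at 96.7, 96.6 and 93.2, and stood at 16.7 and 30.4 in the Olfr1507 libraries. The difference was -71.9 points (normal score -2.46, SE 0.19; limma adjusted p = 0.00150). A second region, 4.9 kb from Emx2, was also lower, at 84.1 and 77.8 against 96.0, 95.8 and 89.6 (adjusted p = 0.0425). The remaining region, inside the gene, stood at 56.1 and 38.0 against 56.9, 47.5 and 45.2 and overlapped between the groups. Within Sdc2, a heparan sulfate proteoglycan of the cell surface, the region at chr15:32952160-32952651 stood at 11.9 and 3.19 against 80.9, 85.2 and 73.0. Near Ctsd, a lysosomal protease, the percentiles were 2.65 and 36.2 against 88.9, 91.1 and 89.7. Within Cflar, a regulator of apoptosis, they were 24.8 and 5.11 against 86.9, 83.3 and 80.9. In the 2 widest cases the Olfr1507 libraries themselves lay apart. Within Pcdh9, a protocadherin, they stood at 64.2 and 0.896 against 99.3, 99.6 and 93.2 in the control, and in the distal surroundings of Stim2, a calcium sensor, at 49.5 and 7.52 against 94.0, 94.7 and 86.5. The Pcdh9 call held in 8 of 17 other settings. The others of the 15 largest falls lay in or near Fam124a, Lsm5, Pakap, Olfr183, Lhcgr, Rpl34-ps1, Col22a1, Ptprm and Atp8a1, with differences from -67.9 to -60.0 points.

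**Figure D2:**
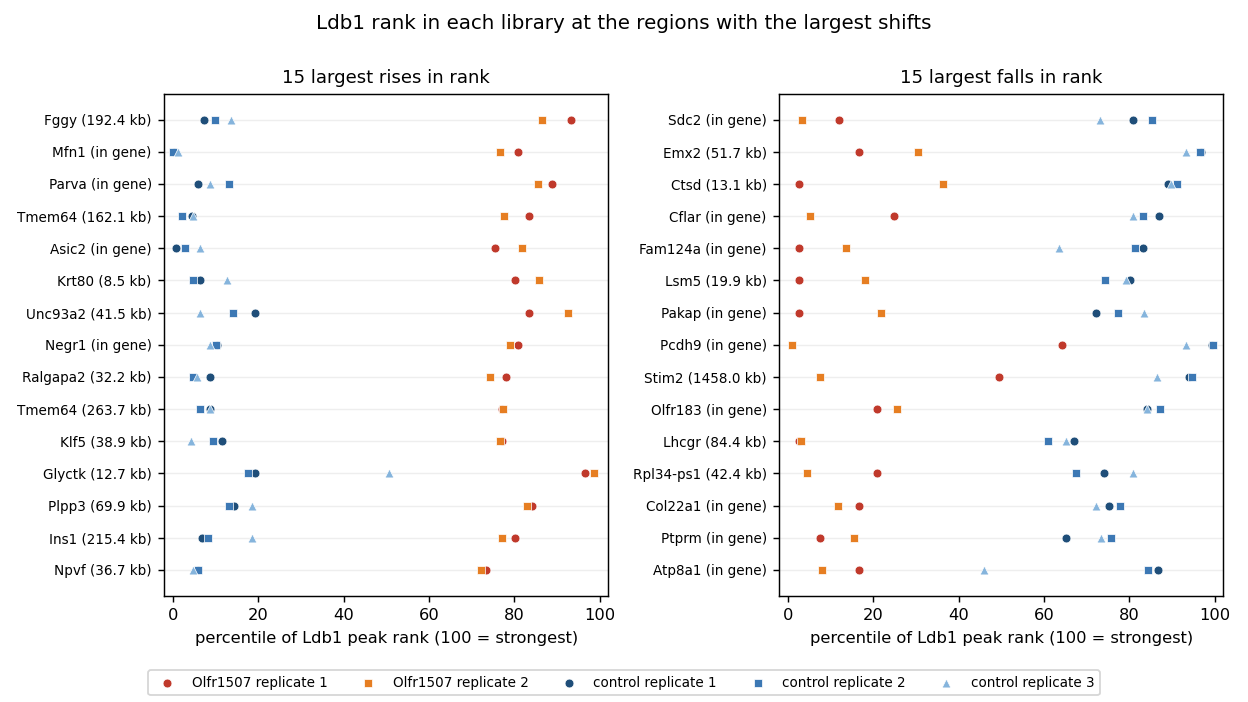
Percentile of Ldb1 peak rank (horizontal axis, 100 for the strongest) in each of the 5 libraries at the 15 regions with the largest rise and the 15 with the largest fall, labelled by the gene they lie in or the nearest gene with its distance. In every row both Olfr1507 libraries (red circle, orange square) lie on 1 side of the 3 control libraries (blue); the Pcdh9 and Stim2 rows show the widest gaps between the Olfr1507 libraries.

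Among genes whose expression differs between the zones of the epithelium, regions of Nqo1 and Robo2 mostly ranked below the controls in Olfr1507 replicate 2 and regions of Nrp2, Nfia and Nfib above them, while the other listed genes were mixed or went the other way. Only 6 shared regions lay within 10 kb of the genes of the dorsal zone (Nqo1, Acsm4, Robo2, Sema3f) and 8 at those of the ventral zone (Ncam2, Nrp2, Nfia, Nfib, Nfix), so Olfr1507 replicate 2 was also set alone against the 3 controls over the 13165 regions with a peak in these 4 libraries, a count added after the data were seen. It lay below all 3 controls at 15 of 18 dorsal regions and above them at 2, where 35.6% of all 13165 regions were below and 36.7% above. At ventral regions 20 of 27 were above and 5 below. A region with a peak in all 3 controls and none in Olfr1507 replicate 2 is outside this set and could not count as below. Such regions lay at Ncam2, Nrp2 and Nfix among the ventral genes and at Robo2 and Acsm4 among the dorsal ones. Over the shared regions, with both Olfr1507 libraries, the counts were 2 below and 1 above of 6 dorsal and 2 below and 4 above of 8 ventral regions, where 27.4% of all shared regions were below and 27.7% above. In Olfr1507 replicate 2 alone the median difference was -19.1 points at the dorsal and 15.2 points at the ventral genes, and 0.0886 over all 13165 regions. With both Olfr1507 libraries, the medians over the shared regions were -10.6 points (dorsal), 6.28 points (ventral) and -0.148 points (all 4853). The difference between the lists was not tested. The counts in Olfr1507 replicate 2 alone have no replicate in Olfr1507 cells, and 18 and 27 regions share 4 and 5 genes. Leaving out any 1 control library gave 15 below of 18 and 20 above of 27 each time. On the same regions such counts cannot fall when a control is left out. Over all 13165 regions the shares then rose to 39.2% to 41.8% below and 40.0% to 43.8% above.

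Nqo1, a quinone reductase that marks the dorsal zone, had 3 such regions, and none had a peak in Olfr1507 replicate 1. A further region inside the gene, chr8:107389536-107389915, had a peak in Olfr1507 replicate 2, at rank 10320, and in no control library. The region at chr8:107406854-107407233, beside the gene, stood at 0.494 in Olfr1507 replicate 2 and at 76.9, 71.6 and 68.6 in the control libraries. The region within the gene at chr8:107391018-107391397 stood at 34.4 against 92.4, 88.3 and 85.4, and the remaining one at 31.4 against 70.9, 61.4 and 71.2. These 3 regions ranked below every control, unlike the further region that no control list held. Over all 13165 regions limma, with 1 Olfr1507 library assumed to vary like the controls, called the first of them lower (adjusted p = 0.0490) and not the others (adjusted p = 0.0512 and 0.0716). Robo2, the axon guidance receptor for Slit proteins that is graded toward the dorsal zone was below all controls at 12 of 13 regions, none of which passed the same fit (lowest adjusted p = 0.0501). At chr16:74276915-74277308 it stood at 16.2 against 74.4, 71.6 and 67.9. Over the 5 libraries, 2 of the 5 shared regions in Robo2 lay below all controls and 3 overlapped with them, and none passed the test, with adjusted p from 0.0529 to 0.662. Acsm4 went the other way, at 89.3 against 85.3, 80.4 and 86.1, and so did Sema3f, at 29.8 against 19.7, 24.8 and 10.5.

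Among the ventral genes, Nrp2, the receptor for class 3 semaphorins, was above all 3 controls at 8 of 9 regions, Nfia at 5 of 5 and Nfib at 4 of 5. A further Nrp2 region, at chr1:62752809-62753207, had a peak in all 3 controls and in no Olfr1507 list, and so was not counted. Nfia, Nfib and Nfix are nuclear factor I transcription factors with higher expression toward the ventral zone. In the shared set 1 region each of Nrp2 and Nfia rose. The Nrp2 region at chr1:62757421-62757804 stood at 35.0 and 33.9 in the Olfr1507 libraries against 15.8, 12.7 and 7.91 (difference 22.3 points; limma adjusted p = 0.0167). The Nfia region at chr4:97919741-97920120 stood at 31.9 and 14.9 against 5.84, 9.55 and 4.21 (16.9 points; adjusted p = 0.0416). A second Nrp2 region, at chr1:62775419-62775825, lay above all controls in replicate 2 alone but below them over the shared set, at 2.65 and 4.50 against 9.005, 6.80 and 7.23 (adjusted p = 0.0964). The Nfia call held in 3 of 16 other settings and the Nrp2 call in 11 of 16. Ncam2, an adhesion protein that marks ventral axons, was mixed, with 2 of 6 regions above and 4 below in Olfr1507 replicate 2. Nfix had 1 of 2 regions above and 1 below.

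**Figure D3:**
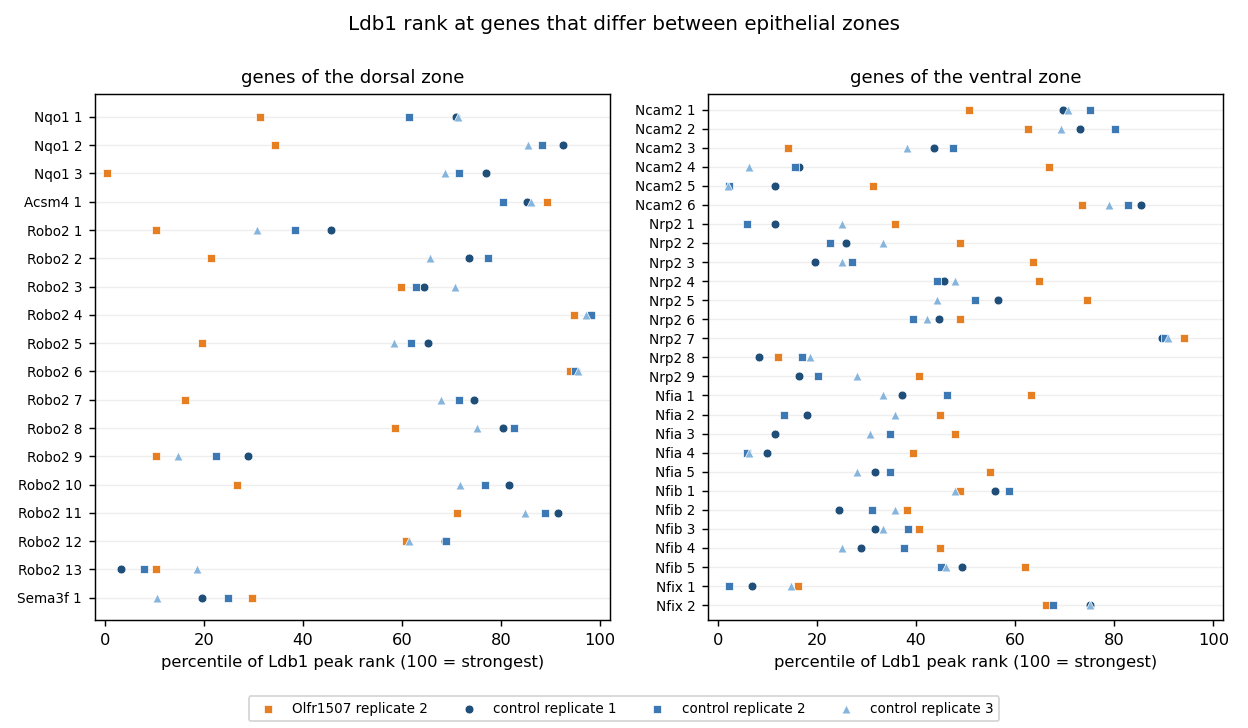
Percentile of Ldb1 rank over 13165 regions (horizontal axis, 100 for the strongest) in Olfr1507 replicate 2 (orange) and the 3 control libraries (blue), at the regions within 10 kb of genes of the dorsal zone (left) and the ventral zone (right), numbered along each gene. The orange points lie left of the blue ones at the 3 Nqo1 and 12 of 13 Robo2 regions and right of them at 8 of 9 Nrp2 and all 5 Nfia regions.

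Ldb1 ranked lower in Olfr1507 cells at many regions of odorant receptor gene clusters. The genome held 43 clusters with 1391 of the 1426 receptor genes and pseudogenes, over 38.5 Mb with flanks of 100 kb, and 40 shared regions lay in them. Of the 40, 21 were lower and 3 higher by the test, where 11.4% of all shared regions were lower and 13.2% higher. The difference was negative at 33 of the 40, where it was negative at 2469 of all 4853. The median was -12.2 points against -0.148 over all shared regions. The 40 regions had a mean percentile of 58.2 and 56.7 in the Olfr1507 libraries and of 73.7 in each control library. In the bin strongest in the control 12 of 21 receptor regions were lower, against 10.7% of 950 other regions. In the next bin 5 of 8 were lower, against 16.0% of 962. Leaving out 1 library at a time on the same regions gave 15 to 23 lower and 1 to 3 higher of 40. Without Olfr1507 replicate 1 and with the set remade, Olfr1507 replicate 2 lay below all controls at 67 of 92 receptor regions and above at 11. Of all 13165 regions, 35.6% lay below and 36.7% above. None of the 111 receptor regions with a peak in all 3 control libraries passed the test over that wider set, where 83 differences were negative. Both Olfr1507 ranks lay below all controls at 56 of the 111 and above at 11. Of all 14868 regions of that set, 21.4% lay below and 24.8% above. Another measure drew on the same lists and scores. The share of the 5095 strongest peaks that lay in the clusters was 0.785% in both Olfr1507 libraries (40 peaks each) and 1.00%, 0.981% and 1.06% in the control libraries (exact permutation test, two-sided, p = 0.1, the smallest possible; adjusted p = 0.35 over 7 shares). The difference was -0.229 points, and -0.0295 points over the full lists (exact permutation p = 0.8).

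The region in Olfr183, the single receptor gene body that held a shared region, at chr16:58956825-58957328, fell from 84.1, 87.3 and 84.1 in the controls to 21.0 and 25.5 (-61.9 points; normal score -1.78, SE 0.14; adjusted p = 0.00137). The region 9.7 kb from Zfp422 and 30.9 kb from Olfr215 stood at 38.1 and 25.5 against 92.0, 92.8 and 80.9. At 24.4 kb from Olfr1350 the percentiles were 7.40 and 9.20 against 54.4, 55.1 and 64.1. Regions 22.2 kb from Olfr362 (31.9 and 47.3 against 87.1, 89.4 and 90.8) and 8.1 kb from Olfr1009 (21.0 and 7.09 against 65.5, 65.2 and 51.5) also fell. Of the 12 shared regions within 10 kb of a receptor gene, 7 were lower and none higher. All 12 differences were negative, where 2469 of all 4853 were. The family was not uniform. Within Pdxk, the pyridoxal kinase gene at the edge of a cluster 56.1 kb from Olfr1358, the region at chr10:78441569-78442131 rose to 75.4 and 86.7 from 29.7, 29.95 and 34.8 (49.6 points; adjusted p = 0.00346). The region at chr14:50758701-50759080, 6.3 kb from Ttc5 and 14.4 kb from Olfr749, was the strongest cluster region in Olfr1507 cells, at 98.9 and 99.7, above 94.3, 95.4 and 96.8 in the controls (adjusted p = 0.0222). A region in 4930415O20Rik, 78.3 kb from Olfr278-ps1, also rose, to 97.0 and 96.1 from 88.4, 84.7 and 89.6 (adjusted p = 0.0188). The other strongest cluster regions of Olfr1507 cells lay 26.8 kb from Olfr1413 (98.8 and 98.6 against 98.9, 99.4 and 99.7), 10.8 kb from Olfr9 (96.7 and 97.1 against 99.2, 99.1 and 99.8, lower, adjusted p = 0.0408) and 12.6 kb from Olfr1274 (94.6 and 96.2 against 93.0, 90.2 and 98.2). In the cluster of class I receptors, the family chosen in the dorsal zone, the single shared region, 18.1 kb from Olfr545, stood at 49.5 and 56.2 against 65.5, 58.8 and 78.2 and did not pass the test (adjusted p = 0.180).

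**Figure D4:**
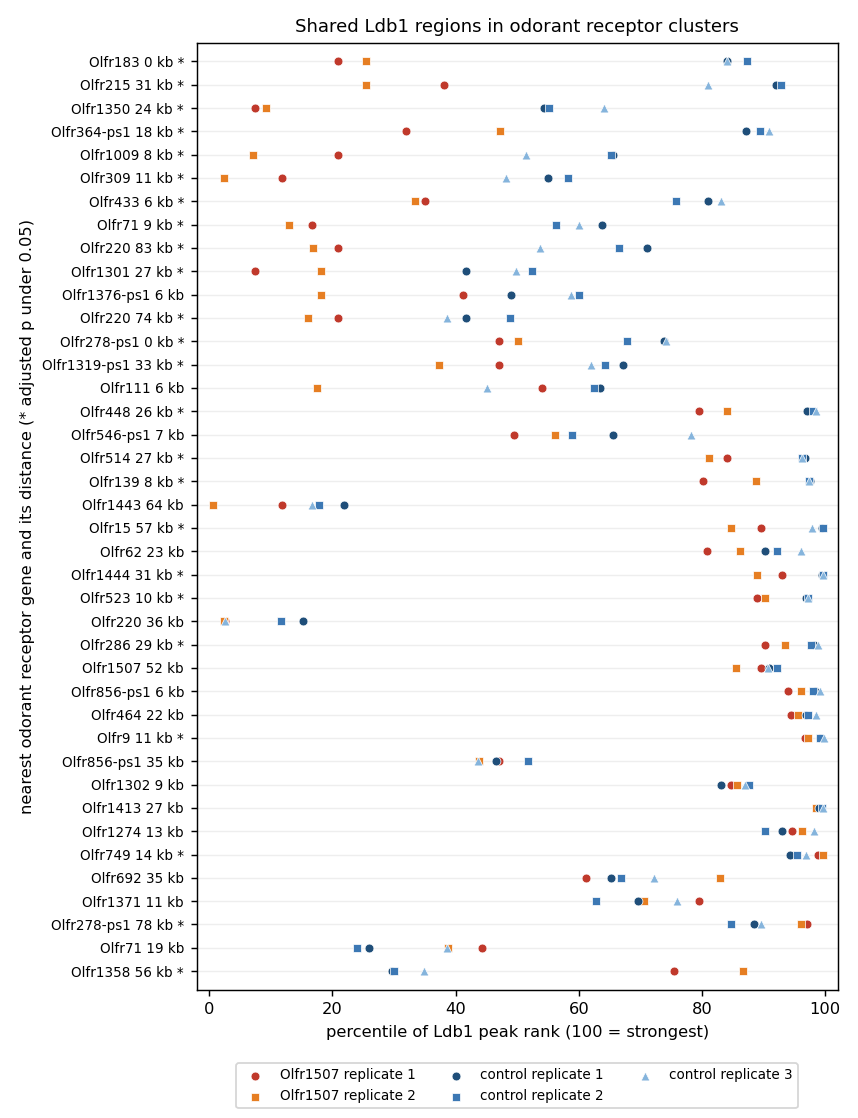
Percentile of Ldb1 rank (horizontal axis, 100 for the strongest) in each library at the 40 shared regions in odorant receptor clusters, ordered by the difference between groups and labelled by the nearest receptor gene and its distance; stars mark the 24 regions that passed the test. The Olfr1507 libraries (red, orange) lie left of the control libraries (blue) at 29 regions and right of all 3 at 4. Of all 4853 shared regions, 27.4% lay below all controls and 27.7% above.

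At the Olfr1507 locus itself, 3 regions lay within 200 kb of the gene (chr14:52489935-52495695). The first, at chr14:52495752-52496131, began 57 bases beyond the end of the gene with the higher coordinates. It had a peak in Olfr1507 replicate 2, at rank 10748 of 21250, and none in Olfr1507 replicate 1 or the 3 control libraries. Peaks within 1 kb of a receptor gene were rare in every list, at 2 and 4 genes in the Olfr1507 libraries and at 4, 10 and 4 genes in the controls. Olfr1507 was the single receptor gene with such a peak in an Olfr1507 library and in no control library. That peak has no second library behind it, and the list of replicate 1 was the short one. The second region, at chr14:52547902-52548281, lay 52.2 kb from the gene. It was strong in both kinds of cell, at ranks 512 and 703 in the Olfr1507 lists and 443, 379 and 455 in the control lists. Its percentiles of 89.6 and 85.5 against 90.8, 92.1 and 90.7 did not pass the test (-3.65 points; normal score -0.20, SE 0.14; adjusted p = 0.335). Both Lhx2 KO libraries had a peak there. The third region, 92.1 kb from the gene, had a peak in control replicate 2 alone, at rank 25204.

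The other gene lists were looked up by region within 10 kb of a gene, with the background of 13.2% of shared regions higher and 11.4% lower. The Ebf transcription factors, which bind with Lhx2 at receptor enhancers, had 27 shared regions, of which 2 were higher and 4 lower. Ebf1 carried 3 of the falls among its 9 regions, and both Olfr1507 libraries lay below all controls at 7 of the 9, against 27.4% of all shared regions. At chr11:45008180-45008681, beside Ebf1, the percentiles were 7.40 and 19.8 against 58.0, 43.3 and 61.4 (-40.6 points; adjusted p = 0.0110). Ebf2 held a region that rose to 61.1 and 60.9 from 12.8, 18.9 and 32.0 (adjusted p = 0.0124). Ebf3 held 1 higher region (49.5 and 54.2 against 23.1, 24.5 and 24.2) and 1 lower, its strongest (98.5 and 98.3 against 99.7, 99.6 and 99.7; adjusted p = 0.0227). The list of Lhx2, Ldb1 and their partner genes, to which Emx2 was added, had 2 of 7 regions lower and none higher. The falls were the nearer Emx2 region described above and 1 of 2 regions at Lmo1. The Lhx2 region at chr2:38357858-38358237 stood at 82.2 and 88.5 against 83.8, 82.2 and 85.4, within the spread of the libraries (adjusted p = 0.748), and the Ldb1 region at 47.0 and 78.2 against 76.6, 71.4 and 79.3 (adjusted p = 0.348).

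Of 46 regions at 15 of the 18 genes listed for odorant signal transduction, 2 were higher and 3 lower. Pde1c, a calcium-activated phosphodiesterase of the olfactory cilia, held both rises and also the largest fall of the list among its 9 shared regions. The region at chr6:56527593-56528006 rose to 73.3 and 74.4 from 21.4, 11.3 and 19.4 (56.5 points; adjusted p = 0.00248). The region at chr6:56596891-56597324 fell to 54.0 and 39.4 from 89.1, 83.7 and 83.7 (-38.8 points; adjusted p = 0.00605). In Olfr1507 replicate 2 alone 11 of 16 Pde1c regions lay above all controls and 2 below, where 36.7% of all 13165 regions lay above and 35.6% below. None of the 6 regions at Adcy3, the adenylyl cyclase of olfactory signalling, passed the test. Both regions beside Omp stood close between groups, at 90.3 and 97.7 against 95.1, 94.3 and 96.0, and at 92.7 and 95.1 against 93.6, 94.7 and 92.6. Of 50 regions at 14 of the 19 genes listed for axon targeting, 5 were higher and 4 lower. Kirrel3, an adhesion protein that sorts axons into glomeruli, had 2 of 4 regions higher, the larger at 44.3 and 36.9 against 14.8, 7.68 and 7.91 (adjusted p = 0.00771). Dscam, another adhesion protein, had a region at 24.8 and 35.5 against 70.0, 69.7 and 76.4 (adjusted p = 0.00539), and Efna5, an ephrin, one at 2.65 and 20.6 against 40.2, 32.6 and 43.6 (adjusted p = 0.0452). Efna5 shifted both ways, with 1 higher and 1 lower of its 5 shared regions.

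Markers of immature neurons had 3 of 10 regions lower and none higher, with a median of -12.7 points. Gng8, a G protein subunit of immature neurons, stood at 61.1 and 75.6 against 93.3, 93.3 and 88.8 (adjusted p = 0.0144), and Dpysl3, a cytoskeletal protein of growing axons, at 11.9 and 3.89 against 27.1, 35.3 and 28.4 (adjusted p = 0.0181). In Olfr1507 replicate 2 alone, 17 of 31 regions of this list lay below all controls and 3 above, against 35.6% and 36.7% of all 13165 regions. Many of them belong to 1 gene, Ncam1, which is also in the axon targeting list. Ncam1 held 17 of the 31 regions, with 10 below and 2 above. It also held 5 of the 10 shared regions and 1 of the 3 falls. Of 6 regions at genes driven by activity, 1 was lower, inside S100a3 and within 10 kb of S100a5, at 11.9 and 29.8 against 53.9, 58.8 and 56.7 (adjusted p = 0.0156). Replicate 2 alone went the other way at this list, with 9 of 15 regions above all controls and 4 below, against the same background. None of 7 regions at regulators of receptor choice passed the test. Among markers of other cells of the epithelium, a region in at least 2 control libraries lay at 1 of 7 sustentacular, 2 of 7 basal and progenitor, 1 of 4 ensheathing glia, 2 of 4 immune and 3 of 4 microvillar genes. A shared region lay at 2 of the microvillar genes, where neither passed the test, and at none of the other lists' genes.

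Neighbouring shifted regions were compared for direction, with no test. Of 35 pairs of neighbouring shifted regions within 10 kb of each other, 32 shifted the same way, and of 411 pairs within 500 kb, 296 did. The shifted regions were 639 higher and 554 lower ones, so many pairs would agree without regard to distance. That share was not computed, for pairs or for genes. Among 2482 genes with a shared region, 84 held 2 or more shifted ones, all in 1 direction at 64 genes and in both at 20. Genes with 3 or more regions shifted 1 way and none the other, a rule chosen after the values were seen, numbered 10 for rises and 5 for falls. Asic2 had 4 higher of 6 regions, with percentiles at chr11:81518543-81518922 of 88.9 and 91.0 against 29.7, 29.95 and 26.3. All 3 regions of Inpp4b, a lipid phosphatase, were higher, the largest at 64.2 and 61.8 against 10.6, 10.8 and 11.9. All 3 regions of Tenm4, a teneurin of neuronal wiring, were higher as well, with differences from 31.5 to 49.5 points. Grip1, a scaffold for glutamate receptors, had 5 lower of 6 regions, the largest at 11.9 and 21.9 against 65.8, 60.3 and 63.1. Kcnip4, a potassium channel subunit, had 4 lower of 6, and all 3 regions of Galnt17, a glycosyltransferase, were lower by 23.0 to 23.8 points. The others were Agbl4, Tmem117, Tmem108, Ppp3ca, Ptn, Mob3b and Gse1 for rises, and Mapkap1 and Ebf1 for falls.

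**Figure D5:**
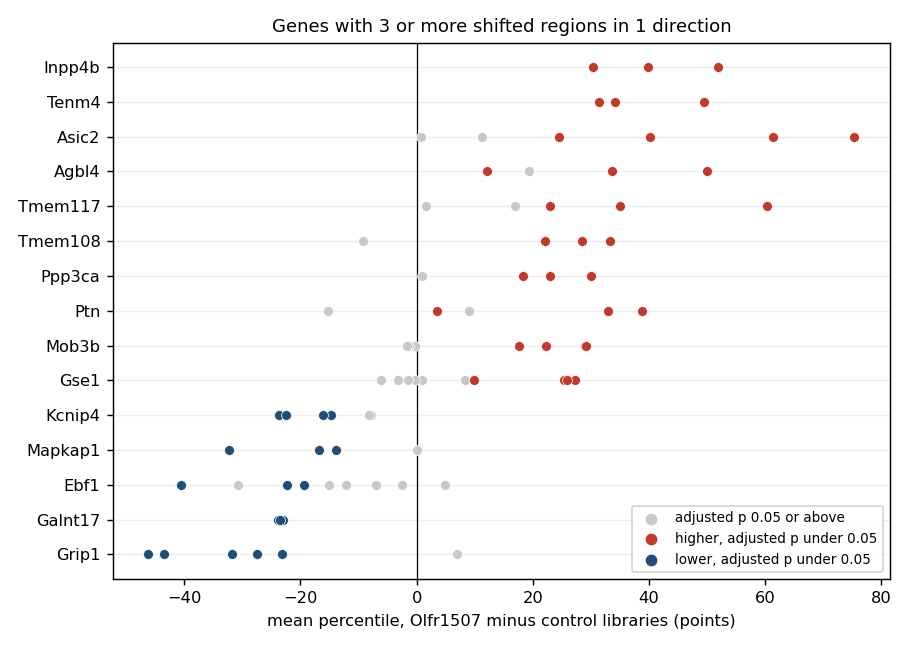
Difference in mean percentile of Ldb1 rank, Olfr1507 minus control libraries (horizontal axis, in points), at every shared region assigned to the 15 genes with 3 or more regions shifted 1 way. Red and blue points passed the test and grey points did not; the 3 points of Galnt17 overlie each other, and Grip1 has 5 blue points and 1 grey point above 0.

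The overlap of shifted regions with other readouts is given as a description, with no test. A Ldb1 peak in Lhx2 KO replicate 1 lay at 6.26% of the higher, 19.1% of the lower and 27.8% of the unshifted regions. A peak of Rad21 replicate 2 lay at 19.2%, 26.9% and 42.4%, one of Rad21 replicate 1 at 1.88%, 10.1% and 8.20%, and a CTCF region of both CTCF libraries at 0.939%, 4.33% and 3.83%. All 4 shares were lowest at the higher regions. The lower regions were below the unshifted ones for KO replicate 1 and Rad21 replicate 2 and above them for Rad21 replicate 1 and CTCF. The 3 sets also differed in control strength, with median control percentiles of 18.4, 58.9 and 53.8. In the bin strongest in the control, a KO replicate 1 peak lay at 27.8% of the higher, 38.6% of the lower and 52.5% of the unshifted regions, and a Rad21 replicate 2 peak at 52.8%, 32.5% and 64.3%. The part of control strength in these shares was not tested. Shares of regions inside genes were closer, at 53.1%, 56.3% and 59.0%. The same marks were counted at the 5095 strongest peaks of each library. CTCF regions held 2.96% and 3.75% of the Olfr1507 peaks against 3.65%, 3.49% and 3.65% of control peaks, and a KO replicate 1 peak lay at 22.8% and 25.6% against 25.3%, 25.2% and 25.5% (exact permutation, two-sided, p = 0.7 and p = 0.4). A KO replicate 2 peak lay at 7.30% and 7.40% against 7.81%, 7.81% and 7.77%, groups that do not overlap (exact permutation p = 0.1, the smallest possible; adjusted p = 0.35 over 7 shares).

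Of 7098 regions among the 5095 strongest peaks of any library, 489 (6.89%) were in both Olfr1507 lists and no control list, and 413 (5.82%) in all 3 control lists and neither Olfr1507 list. Most had a weaker peak in the other group. Of the 489, 431 had a peak in all 3 full control lists, and 18 had one in none. Of the 413, 374 had a peak in Olfr1507 replicate 2 and 39 were in neither full Olfr1507 list. The 5095 strongest peaks of Olfr1507 replicate 1 are its full list. None of the 413 could therefore have a weaker peak there, and the counts for the 489 and the 413 are not like measures. Clusters of receptor genes held 7 of the 413 (1.69%) and none of the 489. Of the 3421 regions among the strongest peaks of all 5 libraries, they held 34 (0.994%). Over the full lists, 32 regions were in both Olfr1507 lists and no control list, and 1671 in all 3 control lists and neither Olfr1507 list, a count that the short list of replicate 1 can set. The 10 strongest of the control were led by a region in Hus1, part of a DNA damage clamp, at chr11:9003847-9004184, with ranks 1036, 853 and 925 in the control lists and no peak in either Olfr1507 list. A region 399 kb from Cd180 had ranks 1428, 1785 and 1072 and was also absent from both. Regions at Elobl, Pde7b, Gpc5, Tpr, Fam71b, Zfp385b and Plcb1 had control ranks from 484 to 3124 and ranks from 5212 to 17593 in Olfr1507 replicate 2. The remaining one was the Nqo1 region described above, at rank 9449 in Olfr1507 replicate 2 against 1007, 1552 and 1944. The 10 strongest of Olfr1507 cells, at Fggy, Unc93a2, Parva, Plpp3, Krt80, Tmem64, Negr1, Ins1, Mfn1 and Asic2, were all among the 15 largest rises. Both sets were picked by a like contrast of the same ranks, so their overlap follows largely from the choice. The Fggy region had ranks 336 and 661 in the Olfr1507 lists against 8360, 7440 and 6206 in the control lists.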

How the data were processed

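ChIP-seq of Ldb1 was used from 2 libraries of Olfr1507 cells and 3 control libraries, with 2 CTCF, 2 Rad21 and 2 Lhx2 KO Ldb1 lists as other readouts. The authors deposited 1 peak list per library, with a score per peak and 1 peak width per list (256 to 380 bases for the 5 libraries). The build is mm10 per the submitters' processing notes, which also name cutadapt 1.9.1, Bowtie2 2.3.2, SAMtools 1.3.1, Picard and HOMER 4.7. For the peak threshold, the control library and the scaling of the score, the answer is not given in the sources used here, so the score served only to rank peaks within a list.

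Peaks overlapping by 1 base or more were linked into regions. Regions with a peak in all 5 libraries were ranked within each library, ties averaged, and the ranks turned into percentiles and normal scores. limma 3.58.1 (R 4.3.3) compared 2 with 3 libraries, with Benjamini-Hochberg adjustment over all 4853 regions and a threshold of 0.05. Equal lists held the 5095 strongest peaks. Shares were compared by exact permutation (scipy 1.17.1, numpy 2.4.6, pandas 2.3.3, Python 3.11.15). Genes came from the RefSeq GRCm38.p6 table, within 10 kb for lists, otherwise the nearest protein-coding gene. Receptor clusters held 3 or more receptor genes with gaps up to 300 kb. The fit was tested on simulated ranks. Alternatives covered the linking of peaks, the set of regions, the transform, a replicate block, the variance prior, the number of top peaks and leaving out each library.

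The text names the 15 largest shifts each way, the largest shifts and strongest region of each list, genes looked up by name, and regions under promoters. The members and lists were chosen with earlier results of these data known. Counts in Olfr1507 replicate 2 alone and genes with 3 or more shifted regions were added after the data were seen.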

Additional observations from a re-analysis of the deposited data

How the results depend on the processing

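All shifted counts depend on which regions are compared. With regions in all 3 control lists, absent peaks ranked last, limma called 0 of 14868 in either direction, with 3811 at an unadjusted p under 0.05 and a smallest adjusted p of 0.0546. Among the 2500 strongest regions it called 255 higher and 258 lower. Replicate numbers were not used to pair the samples. Deviations of same-numbered libraries correlated at 0.115 and -0.124. The deviations of 2 Olfr1507 libraries mirror each other, so these values cannot tell whether the samples were paired. A replicate block gave 336 higher and 208 lower. Leaving out 1 library gave 7 to 801 higher and 78 to 837 lower with the set remade, and 278 to 796 and 172 to 839 on the same regions (300 and 180 without control replicate 1, 361 lower without control replicate 3). Regions whose groups do not overlap numbered 675 above and 672 below among the 2500 strongest, and 3689 and 3182 over the control regions. Leaving out 1 library gave 1440 to 4832 above and 1441 to 4690 below, or 1435 to 1951 and 1437 to 1990 on the same regions. On the same regions such counts cannot fall when a library is left out. Regions strong in 1 group alone numbered 254 and 226 with 2500 top peaks, 110 and 92 with 1000, 32 and 1671 with full lists, and 522 to 962 and 467 to 773 without 1 library.

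Differences in shares of top peaks turned positive with full lists, at 1.25 points for Rad21 replicate 1, 6.197 for Rad21 replicate 2, 5.21 for KO replicate 1 and 2.55 for KO replicate 2, and at 0.0333 for Rad21 replicate 2 with 1000 peaks. Leaving out 1 library moved CTCF from -0.635 to 0.150, Rad21 replicate 1 from -0.994 to 0.262, Rad21 replicate 2 from -3.33 to 1.14, KO replicate 1 from -2.51 to 0.262 and gene ends from -1.01 to 0.229. Receptor clusters ranged from -0.245 to -0.206 without 1 library, and stood at -0.44 with 2500 top peaks and -0.0295 with full lists, and without 1 library KO replicate 2 ranged from -0.497 to -0.399 and the overlap difference from -14.5 to -8.59. Of the named regions, the 58 higher and 50 lower ones kept their sign in all 938 and 831 other values and passed in 667 and 543. Both Olfr1507 ranks already lay outside all control ranks at these regions. On the same regions, leaving out a library or changing the transform or the variance prior could therefore not change the sign. The weak Lmo1 region (0.15 in normal score) ranged from -0.74, without Olfr1507 replicate 2, to 0.79, without replicate 1. Beyond fewer libraries or other regions entering, the cause was not tested.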
